A study of Mus musculus with 24 samples.

Results

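GC B cells that had lost 1 copy of Crebbp and 1 copy of Kmt2d (CK) were compared with GC B cells that had lost 1 copy of Crebbp alone (C), to find the chromatin that changes when Kmt2d loss is added to Crebbp loss. All CK and C libraries were taken by genotype label, giving 5 CK and 4 C mice, which are 9 of the 24 samples of the series. Every mouse carried 1 Cγ1-cre allele, which is switched on in activated B cells as they enter the GC. C mice carried a heterozygous floxed Crebbp allele beside it, CK mice carried heterozygous floxed Crebbp and Kmt2d alleles, K mice only the floxed Kmt2d allele, and WT mice only the Cre. The mice were young adults of a C57BL/6J background, were immunized with sheep red blood cells, and their splenic GC B cells were sorted 10 days later for ATAC-seq, which reads accessibility from where a transposase can enter chromatin. The 4 WT and 4 K mice served as the same Kmt2d comparison on a Crebbp-intact background, and 7 WT libraries of sorted centroblasts and centrocytes were not analysed here. The model removes 1 copy of each gene in GC-experienced B cells, so a second copy of each gene was left in all cells compared.

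KMT2D is a histone methyltransferase that primes enhancers, and CREBBP is an acetyltransferase that acts on the same class of elements. Both support the programs by which GC B cells leave the dividing dark zone state, receive T-cell help and exit as memory or plasma cells, and both genes are often mutated in follicular lymphoma and diffuse large B-cell lymphoma. Accessibility at a gene's start and accessibility at its distant elements can change apart from each other, so both were measured.

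Peaks took up 17483706 to 20843883 fragments in CK and 18785986 to 21857738 in C. Levels are given as CPM, the fragments of a peak scaled to a common library total. Pearson's r of log2 CPM across peaks lay between 0.986 and 0.992 within C, between 0.985 and 0.990 within CK, and between 0.982 and 0.988 for a C with a CK mouse. Although the study describes female mice for this assay, replicates 1 and 2 of C and replicates 1 and 4 of CK had 76.9 to 81.9 CPM in peaks on the Y chromosome outside its distal end, and the other 5 libraries had at most 0.0532. Both groups held both classes, and values within each class are given beside the main results. GC B-cell markers were open in both groups, where the promoter peaks of 8 markers such as Bcl6, Fas and S1pr2 summed to 654 to 719 CPM in C and 607 to 708 in CK. None of these markers was called, and the distal sums of the 8 markers, which cover peaks 5 to 100 kb away, all had log2 fold changes below 0, with a median of -0.12. Of 10 T-cell markers, 6 had no promoter peak (Cd3e, Cd3g, Cd4, Cd8a, Themis and Cd28), and the other 4 summed to 160 to 172 CPM in C and 151 to 183 in CK. Distal sums of the 5 T-cell markers with distal peaks did not overlap, at 84.3 to 99.8 CPM in C and 80.6 to 83.1 in CK, nor did they between WT (89.6 to 107 CPM) and K (81.3 to 84.8), with a median log2 fold change of -0.23 in CK against C. The summed distal level thus moved with the contrast, but its members went both ways. Of the 5 distal sums 2 had log2 fold changes above 0, and 1, that of Cd4, was called. Of the 4 promoter sums 2 were above 0, with a median of 0.06 and none called. The part of these markers in the results was not tested. Promoter sums of 7 markers of other B cells (353 to 376 CPM in C, 354 to 365 in CK), 6 myeloid markers (28.9 to 39.5 and 32.1 to 39.9), 2 NK-cell markers (11.4 to 13.5 and 12.7 to 17.7) and 3 erythroid markers (59.9 to 68.0 and 64.1 to 69.4) held no gene that passed the test.

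Crebbp and Kmt2d were examined first. The 5 peaks over Crebbp (chr16:4081328-4213997 on GRCm38) summed to 44.0 ± 2.69 CPM (SD, n = 4) in C and 50.3 ± 1.38 (SD, n = 5) in CK, while WT had 45.3 ± 1.72 (SD, n = 4) and K had 48.9 ± 4.04 (SD, n = 4) (CK against C, p = 0.0159 by a two-sided exact permutation test, 0.0381 when adjusted over 12 such tests). The 4 peaks over Kmt2d (chr15:98831669-98871204) summed to 124 ± 3.28 CPM (SD, n = 4) in C and 132 ± 3.87 (SD, n = 5) in CK (p = 0.0476 by the same exact test, adjusted to 0.0952). No peak over either gene passed the peak test, so accessibility gave no check of the deletions.

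Sequences of the peak centers show the 2 kinds of region that the comparison parted, open elements with few CpG dinucleotides and CpG-rich gene starts, with the Sipa1l3 intron as a gained peak of the first kind. Each run is the central 300 bases of a peak on the plus strand of GRCm38, and capitals mark CpG dinucleotides. The first 2 are lost peaks with the lowest adjusted p, in an intron of Aff3 (chr1:38268323-38268622) and upstream of Grik3 (chr4:125481383-125481682), and the third is a lost peak nearest to Bcl6 (chr16:24068719-24069018). The others are gained peaks, in an intron of Sipa1l3 (chr7:29338675-29338974) and at the start of Steap3 (chr1:120265136-120265435).
Aff3 intron, lost: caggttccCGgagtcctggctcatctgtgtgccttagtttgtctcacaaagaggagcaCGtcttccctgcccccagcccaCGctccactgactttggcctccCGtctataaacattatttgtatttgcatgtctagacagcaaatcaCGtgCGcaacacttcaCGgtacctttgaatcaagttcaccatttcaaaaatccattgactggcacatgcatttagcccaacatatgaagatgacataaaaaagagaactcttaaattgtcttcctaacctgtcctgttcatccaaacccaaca
Grik3 upstream, lost: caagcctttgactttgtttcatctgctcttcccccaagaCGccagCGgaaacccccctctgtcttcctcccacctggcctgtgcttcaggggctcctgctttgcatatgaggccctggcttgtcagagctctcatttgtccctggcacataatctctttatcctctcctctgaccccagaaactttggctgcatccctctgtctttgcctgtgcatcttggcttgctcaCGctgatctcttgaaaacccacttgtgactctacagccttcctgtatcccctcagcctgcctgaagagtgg
Bcl6 distal, lost: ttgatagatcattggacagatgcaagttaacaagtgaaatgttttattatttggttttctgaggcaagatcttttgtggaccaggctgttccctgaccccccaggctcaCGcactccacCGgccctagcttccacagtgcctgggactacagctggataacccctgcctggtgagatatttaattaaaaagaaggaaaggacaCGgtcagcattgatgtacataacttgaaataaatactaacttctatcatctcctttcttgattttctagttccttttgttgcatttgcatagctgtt
Sipa1l3 intron, gained: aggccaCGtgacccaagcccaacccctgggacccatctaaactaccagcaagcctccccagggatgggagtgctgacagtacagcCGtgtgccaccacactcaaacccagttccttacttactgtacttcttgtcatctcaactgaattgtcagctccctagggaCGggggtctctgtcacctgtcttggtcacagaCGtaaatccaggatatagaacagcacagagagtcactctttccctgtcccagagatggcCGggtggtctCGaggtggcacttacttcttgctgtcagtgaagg
Steap3 start, gained: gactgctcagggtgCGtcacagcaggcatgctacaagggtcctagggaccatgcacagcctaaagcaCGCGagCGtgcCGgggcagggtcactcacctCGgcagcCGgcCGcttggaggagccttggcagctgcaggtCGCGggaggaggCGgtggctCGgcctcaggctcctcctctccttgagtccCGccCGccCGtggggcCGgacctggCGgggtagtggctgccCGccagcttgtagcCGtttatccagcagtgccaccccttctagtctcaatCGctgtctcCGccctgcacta
The Aff3, Grik3 and Bcl6 centers held 7, 3 and 3 CpG dinucleotides, and the Sipa1l3 and Steap3 centers held 6 and 21. On either strand, the Aff3 and Bcl6 centers contain the octamer ATGCAAAT, the letters bound by POU2F2, which 4.17% of all peak centers hold, and the Steap3 center contains GGGCGG, the letters of SP and KLF factors, held by 17.6%. The Grik3 center holds neither. A lost peak in an intron of Kctd13, whose center is not shown, held 10 CpG dinucleotides and GGGCGG. The runs are thus picked examples and do not stand for all lost or gained peaks.

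Adding Kmt2d loss to Crebbp loss changed accessibility in both directions. Of 65483 peaks, 594 were gained in CK relative to C (0.907% of all peaks) and 504 were lost (0.770%) and these are called differentially accessible peaks (DAPs). The call was an edgeR quasi-likelihood p below 0.01 after Benjamini-Hochberg adjustment over all peaks. The median log2 fold change was 0.49 among gained peaks, with quartiles of 0.34 and 0.66, and -0.59 among lost peaks, with quartiles of -0.75 and -0.44. The change exceeded 1.5-fold at 205 gained and 255 lost peaks and 2-fold at 30 and 36. Every CK mouse lay above every C mouse at 568 gained peaks and below at 479 lost peaks, while over all peaks this held for 5.07% and 4.06%. The DAPs were called on these same mice, so their separation follows from the call and is no further support for it. In these bulk libraries a peak that is less open in every cell and a peak that is closed in more of the cells cannot be told apart. With peaks centered within bins of equal GC content, 227 peaks were gained and 377 were lost, so the split of calls depended on this centering, and on single libraries as given next. The number of DAPs fell to 250 without C replicate 4, 397 without CK replicate 1, 517, 526 and 631 without C replicates 2, 3 and 1, and 620 without CK replicate 4. The split moved as well, to 185 gained and 332 lost peaks without C replicate 2 and to 808 and 380 without CK replicate 2. With and without Y chromosome signal, all 594 gained and all 504 lost peaks kept their direction in both classes, against 64.2% of all peaks with the same direction in both. These libraries had entered the test that chose the peaks, so the count describes the DAPs and does not test them.

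Gained and lost peaks lay at different places in the genome. Of the gained peaks, 74.1% (440) lay within 1 kb of a transcription start site (TSS) of a protein-coding gene, as did 4.76% (24) of the lost peaks and 21.3% of all peaks. Between 5 and 100 kb from the nearest TSS lay 76.8% (387) of the lost peaks, 19.5% (116) of the gained peaks and 61.0% of all peaks. Read from the side of the elements, 3.15% of peaks within 1 kb of a TSS were gained and 0.172% lost, while 0.290% of peaks between 5 and 100 kb were gained and 0.969% lost. Introns held 66.3% of lost, 31.5% of gained and 46.9% of all peaks.

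**Figure D1:**
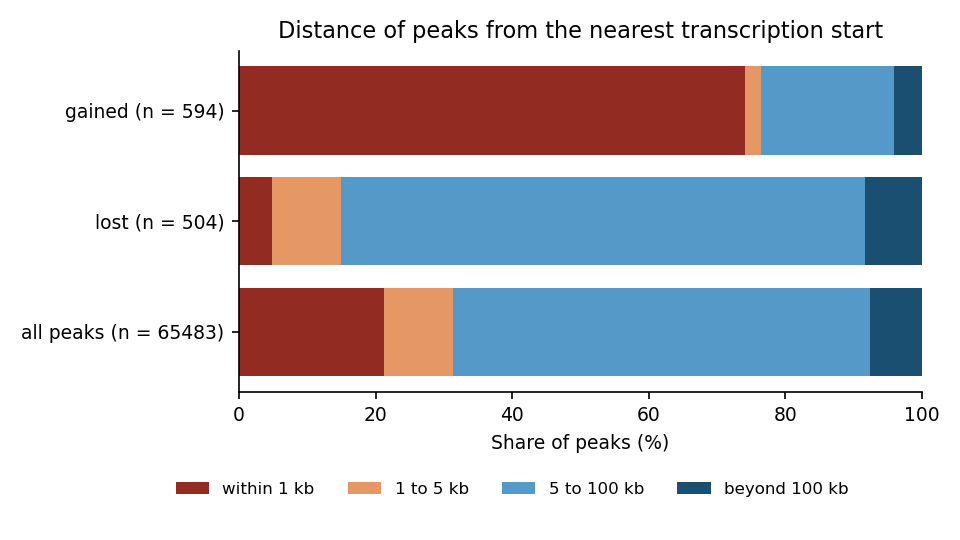
Horizontal bars show the share of peaks (%) in 4 classes of distance from the nearest TSS, for the 594 gained peaks, the 504 lost peaks and all 65483 peaks. Most of the gained bar is the class within 1 kb (74.1%) and most of the lost bar is the class from 5 to 100 kb (76.8%).

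The DAPs also differed in base composition. The median GC content was 61.3% in gained, 46.7% in lost and 48.2% in all peaks, and the median number of CpG dinucleotides in the central 300 bases was 31, 3 and 4. Among the 35093 peaks with 0 to 4 CpG dinucleotides 0.168% were gained and 1.14% lost, and among the 4430 peaks with 30 or more 7.04% (312) were gained and 0 lost. Beyond 5 kb from a TSS the median log2 fold change of all peaks went from -0.07 with 0 to 4 CpG dinucleotides to 0.27 with 30 or more. Among peaks within 1 kb of a TSS, gained peaks were of modest height. Their median CPM in C was 17.9, against 32.7 for all such peaks, and 5.46% of promoter peaks with 5 to 20 CPM in C were gained but 0.822% of those with 80 or more. Beyond 5 kb, called peaks of both directions were taller than the others. The median CPM in C was 10.4 for lost and 4.61 for gained peaks, against 2.96 for all peaks there. A peak with more fragments is also called more readily at the same fold change, and the part of this was not tested.

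**Figure D2:**
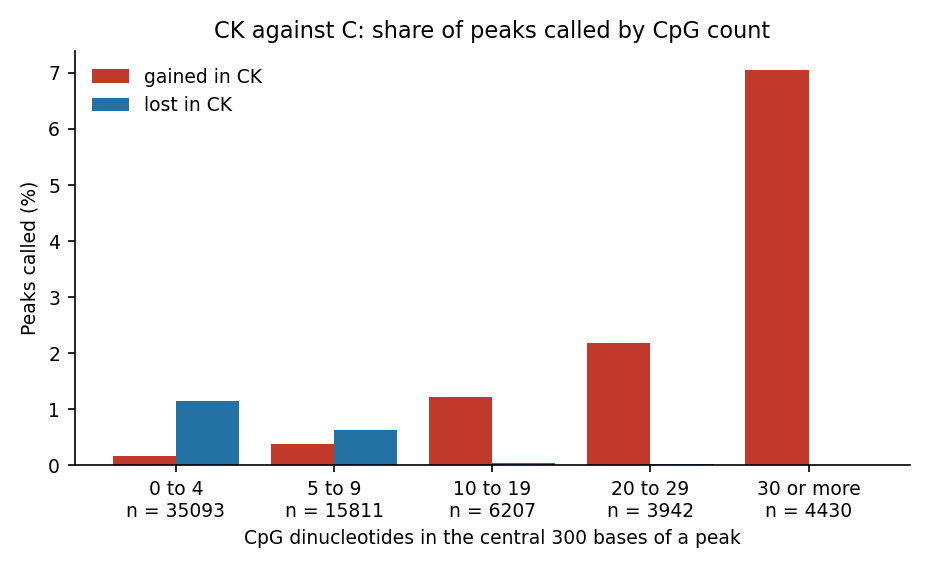
Bars give the percent of peaks called gained and lost in CK against C in 5 classes of the number of CpG dinucleotides in the central 300 bases of a peak, with the number of peaks in each class under the axis. The gained share climbs from 0.168% to 7.04% and the lost share drops from 1.14% to 0.

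GC content moved with the groups in the libraries as a whole, and its part in the calls was measured by the bins of equal GC content. The mean GC content of the peaks, weighted by their fragments, was 53.2% ± 0.119 (SD, n = 5) in CK and 52.9% ± 0.110 (SD, n = 4) in C (exact permutation p = 0.0159, adjusted to 0.0381). Within the bins, the gained peaks of the main test kept a median log2 fold change of 0.36 and the lost peaks -0.55, 204 gained and 309 lost peaks were called again, and 46.7% of the gained calls lay within 1 kb of a TSS. A library property and a change at CpG-rich promoters cannot be told apart from these counts.

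Short sequences were counted in the peak centers on both strands. The octamer ATGCAAAT occurred in 8.39% of the lost peaks beyond 5 kb and in 4.94% of all peaks there, the RUNX letters TGTGGTT in 11.2% and 9.75%, the AP-1 letters TGANTCA in 11.7% and 10.3%, and the PU.1 letters GAGGAAGT in 6.06% and 6.65%. Of the gained peaks within 1 kb of a TSS, 75.7% held GGGCGG, against 52.1% of all peaks there. The EBF1 letters CCCNNGGG occurred in 33.6% and 21.2% of them, and the CCAAT letters of NFY in 17.05% and 26.6%. These are matches of letters with no test, and the gained peaks are richer in G and C than the peaks beside them.

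The share of all peak fragments that fell within 5 kb of a TSS was higher in CK. It was 62.7%, 62.8%, 61.2% and 61.7% in the C mice and 64.5%, 63.5%, 63.1%, 63.8% and 63.9% in the CK mice, so that every CK mouse lay above every C mouse. The means were 62.1% ± 0.771 (SD, n = 4) in C and 63.8% ± 0.511 (SD, n = 5) in CK, a difference of 1.67 percentage points (exact permutation p = 0.0159, the smallest this design gives, adjusted to 0.0381). The difference was 1.42 points among mice with Y chromosome signal and 2.05 among those without. In K against WT it was 1.49 points, with overlapping mice (exact permutation p = 0.171, adjusted to 0.206). The share of fragments on the mitochondrial genome was 1.07% ± 0.197 (SD, n = 5) in CK and 1.09% ± 0.132 (SD, n = 4) in C (exact permutation p = 0.905).

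Named peaks were the 10 gained and 10 lost with the lowest adjusted p whose CK and C mice did not overlap. The parting of CK from C mice at these peaks was thus set by the rule and is not a result. The peak 8.65 kb upstream of Grik3, which encodes a kainate receptor subunit, shared the lowest adjusted p with the Aff3 peak described next. It had 6.56, 5.41, 6.17 and 7.59 CPM in the C mice and 2.46, 2.42, 2.56, 2.49 and 3.11 in the CK mice. Its log2 fold change was -1.30 (SE 0.12, edgeR adjusted p = 3.53e-06), and each CK mouse was well below the lowest C mouse. The peak in an intron of Aff3, a nuclear factor of lymphoid cells, behaved otherwise with respect to WT. It had 22.2, 20.6, 22.2 and 22.6 CPM in C, between 12.7 and 13.4 in the 5 CK mice, and 14.4 ± 0.686 (SD, n = 4) in WT. The log2 fold change of CK against C was -0.75 (SE 0.07, edgeR adjusted p = 3.53e-06), and the CK level lay beside WT, with C above both (log2 fold change of C against WT 0.60). Its nearest TSS is that of Rev1, 138 kb away, which encodes a polymerase used in somatic hypermutation.

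The third lost peak lies in an intron of Kctd13, an adaptor of a ubiquitin ligase, with Asphd1 as its nearest TSS. It had 8.02, 8.12, 8.44 and 8.39 CPM in C and 4.53, 4.42, 4.12, 4.48 and 4.15 in CK (log2 fold change -0.92, SE 0.10, edgeR adjusted p = 4.94e-05), with very narrow groups. The peak in an intron of Clasp1, nearest to Tfcp2l1 and chosen by the same rule, fell furthest of the 20, from between 3.96 and 6.52 CPM in the 4 C mice to 1.62, 0.700, 2.37, 2.49 and 1.38 in CK (log2 fold change -1.64, SE 0.21, edgeR adjusted p = 0.000144). The CK mice were spread more widely here than at the peaks above, and still lay below all C mice. The other 6 lost peaks lie in introns of Coro1c, a coronin that binds actin, Sipa1l1, which inactivates the GTPase RAP, Susd6, Dennd1a, an activator of the GTPase RAB35, and Znrf1, a ubiquitin ligase, and 162 kb from the TSS of Clic5. Their log2 fold changes ran from -0.45 at Clic5 to -0.96 at Sipa1l1.

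Among gained peaks the lowest adjusted p belonged to an intron of Sipa1l3, a relative of Sipa1l1 that fell. This peak had 5.29, 4.38, 3.69 and 4.73 CPM in C and 9.50, 8.88, 8.05, 8.97 and 8.82 in CK, with all CK mice above all C mice, as the rule required. The log2 fold change was 0.97 (SE 0.11, edgeR adjusted p = 4.84e-05). The peak at the start of Steap3, a metalloreductase of endosomal iron uptake, rose from 22.04, 18.7, 20.6 and 19.5 CPM in C to 29.4, 35.3, 33.4, 30.0 and 26.8 in CK (log2 fold change 0.62, SE 0.08, edgeR adjusted p = 0.00013). The groups were parted, although CK was more variable than C. At the start of Acvr1, a receptor for bone morphogenetic proteins, the C mice had 3.73, 3.25, 3.08 and 3.40 CPM and the CK mice 6.45, 5.71, 6.29, 6.72 and 6.11 (log2 fold change 0.89, SE 0.12, edgeR adjusted p = 0.000148). Every CK mouse exceeded every C mouse by a wide margin. Gained peaks at the starts of Rnf144a and Trim2, which encode ubiquitin ligases, Fbxo27, an F-box protein, Pm20d2, a peptidase, and Nhsl1, and distal gained peaks near Enpep, an aminopeptidase, and in an intron of Me3, a malic enzyme, with Ccdc81 as the nearest TSS, had log2 fold changes from 0.57 at Ccdc81 to 0.95 at Enpep. All 20 peaks passed the test with any 1 library left out. They were chosen for the lowest adjusted p on these libraries, so this describes the peaks and does not test them.

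**Figure D3:**
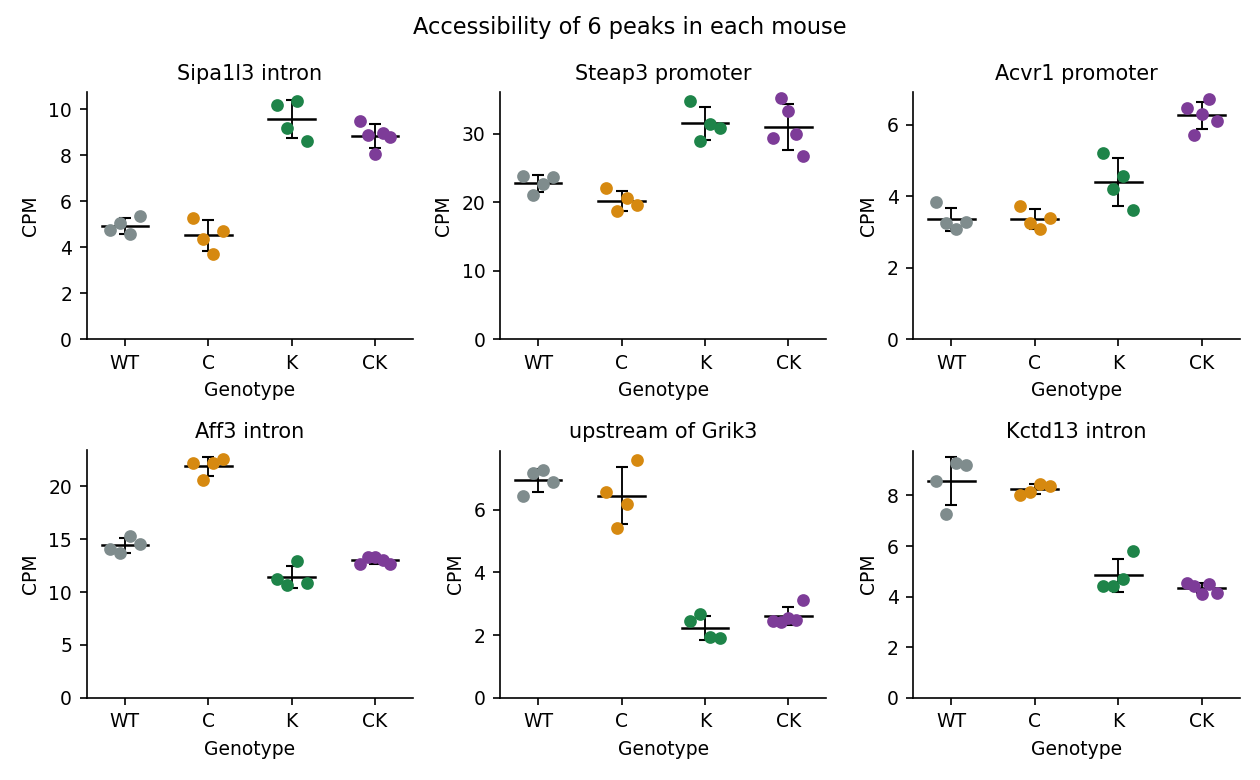
Points are CPM of single mice at 3 gained peaks (top row) and 3 lost peaks (bottom row), with 1 panel per peak, genotype on the horizontal axis and a line with bars for the mean ± SD. The peaks were chosen for no overlap of the 5 CK with the 4 C mice, so their parting in every panel was set by the rule. In each panel the K mean differs from the WT mean in the direction in which CK differs from C, with 1 K mouse inside the WT range at Acvr1.

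Among the other DAPs with no overlap of mice, taken once per nearest gene, the largest fold changes were mostly at peaks of low height. The largest of any DAP, a log2 fold change of 3.02 nearest to Rims2, was outside this rule. Cobll1 (intron) rose from 0.549 ± 0.159 CPM (SD, n = 4) to 1.48 ± 0.201 (SD, n = 5), with a log2 fold change of 1.42 (SE 0.23, edgeR adjusted p = 0.00111). Tcerg1l (intron) fell from 9.44 ± 1.94 CPM (SD, n = 4) to 3.82 ± 1.69 (SD, n = 5), with a log2 fold change of -1.29 (SE 0.22, edgeR adjusted p = 0.00119). Gained peaks at or near Rbbp8, Gm12689 and Fgf13 had log2 fold changes between 1.38 and 1.46, and lost peaks near Fam19a4, Olfr412 and Cggbp1 between -1.28 and -1.27. Of the 10 peaks with the largest fold changes by this rule, 6 lost the call when some 1 library was left out.

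Some genes were nearest to several DAPs, a count that also depends on how many peaks a gene has. The nearest genes numbered 978, and 96 of them had 2 or more DAPs, of which 25 had only gained, 63 only lost and 8 both. Tcf4, the E protein E2-2 of B-cell and plasmacytoid dendritic cell development, had the most, with 8 gained peaks over 352 kb of chromosome 18 and no lost one. At the peak over one of its starts the C mice had 30.3, 31.1, 34.6 and 27.7 CPM and the CK mice 48.0, 48.0, 44.6, 46.4 and 44.7 (log2 fold change 0.58, SE 0.08, edgeR adjusted p = 0.000149). The groups were far apart at this peak, and the 8 log2 fold changes ranged from 0.37 to 0.76. Of all 46 peaks nearest to Tcf4, 27 had a log2 fold change above 0, with a median of 0.09. The call at 5 of the 8 peaks was lost when some 1 library was left out. Foxp1, a forkhead factor of B-cell development, and Trib2, a pseudokinase, had 3 gained peaks each. Vps8, of endosomal tethering, had 5 lost peaks, and 3 lost peaks each were nearest, among others, to Dnmt3a, a DNA methyltransferase, to Smad1 and Smad3, the transducers of bone morphogenetic protein and TGF-β signals, to Zmiz1, to Gna12, a G protein subunit, and to Get4, Kidins220, Suco, Tbc1d22a and Vipr2.

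Changes in K against WT, measured in 8 other mice, went the same way at nearly all DAPs. K and WT gave 424 gained (0.647%) and 542 lost peaks (0.828%) of their own. Of the 594 peaks gained in CK against C, 591 had a higher estimate in K than in WT and 173 (29.1%) were called gained there. Of the 504 lost peaks, 503 were lower in K and 189 (37.5%) were called lost, and no DAP was called in the opposite direction. In all, 99.6% of DAPs had the same sign (95% exact Clopper-Pearson interval 99.1 to 99.9), against 71.0% of all peaks, and after centering within GC content bins the share was 99.5%. The 2 contrasts share the normalization and the fitted spread but no mouse. Peaks of 1 mouse are not independent, so the interval counts peaks and does not give the spread between mice. The median log2 fold change in K against WT was 0.36 at gained and -0.46 at lost peaks, and the estimate was smaller in size than in CK against C at 80.6% and 74.0% of them. The DAPs were chosen for their size in CK against C, which by itself makes the other contrast look smaller. Relative to WT, the same peaks had medians of 0.50 and -0.55 in CK and of -0.01 and 0.01 in C, contrasts that share mice with CK against C.

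**Figure D4:**
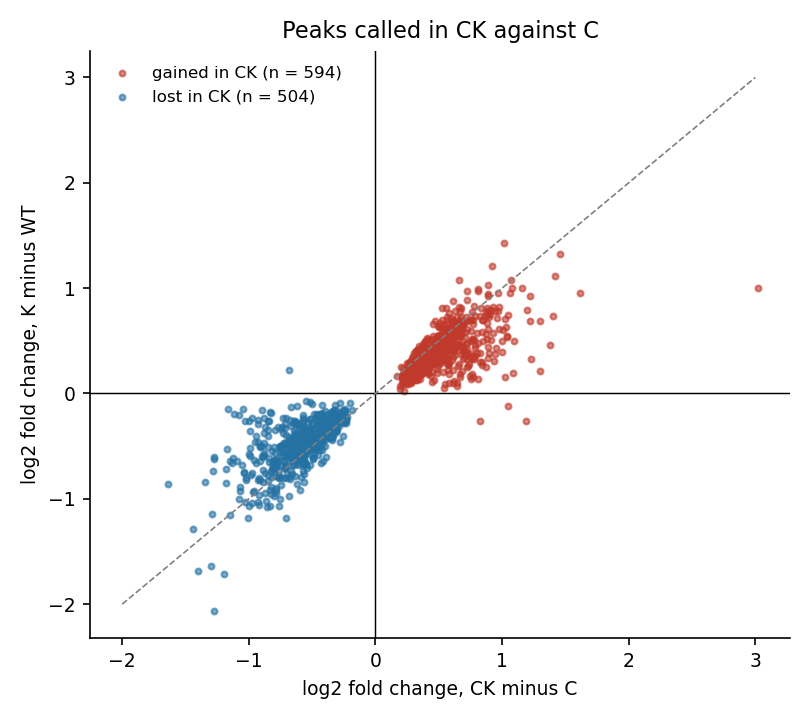
Each point is a DAP of CK against C, with its log2 fold change in CK against C on the horizontal axis and in K against WT on the vertical axis, and a dashed line for equal changes. Gained peaks fill the upper right and lost peaks the lower left, and 4 of 1098 points have opposite signs on the axes.

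Grik3 (K against WT log2 fold change -1.64, edgeR adjusted p = 3.38e-07), Sipa1l3 (0.96, adjusted p = 3.16e-05) and Kctd13 with nearest TSS Asphd1 (-0.82, adjusted p = 0.000187) changed in K as they did in CK. Acvr1 (0.38, adjusted p = 0.0758) and Nhsl1 (0.33, adjusted p = 0.129) did not pass the test in K, and the interaction, the difference from CK against C, was 0.51 at Acvr1 and 0.56 at Nhsl1, with an edgeR adjusted p near 1 at both. The Aff3 intron peak did not pass in K either (-0.34, adjusted p = 0.0123), and its interaction was -0.41 (edgeR adjusted p = 0.731). The DAPs with the opposite sign in K lie near Foxp1 (0.83 in CK against C and -0.26 in K against WT), Mlip (1.05 and -0.12), Neto1 (1.19 and -0.26) and Dym (-0.68 and 0.22), and none of the 4 passed the test in K.

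Whether Kmt2d loss acted otherwise on Crebbp loss than on WT was tested directly as the interaction over all peaks. It was called at 7 peaks (0.0107%), beside 2444 peaks whose unadjusted p was below 0.05 and 11 calls by DESeq2. At the 1098 DAPs the lowest adjusted p of the interaction was 0.374, and 98 DAPs (8.93%) had an unadjusted p under 0.05, beside 3.73% of all peaks. The estimate was larger in CK against C at 479 gained and 373 lost peaks, with a median excess of 0.10 on the log2 scale in both, again on peaks chosen for that contrast. None of the 7 peaks was a DAP of CK against C. They lie near Mroh2a (2 peaks) and Hjurp on chromosome 1, Mks1, Msi2 and Akap1 on chromosome 11, and Ablim1 on chromosome 19. Those on chromosome 1 start between positions 88252544 and 88276572, and those on chromosome 11 between 87840663 and 88815911. The 7 peaks are thus not 7 separate loci. At Hjurp, a chaperone of centromeric histone, the WT mice had 170 ± 3.05 CPM (SD, n = 4) while C, K and CK had 122 ± 3.70 (SD, n = 4), 121 ± 2.51 (SD, n = 4) and 121 ± 7.20 (SD, n = 5). At Ablim1, which binds actin, K stood alone with 0.212 ± 0.1502 CPM (SD, n = 4), while C had 10.1 ± 1.56 (SD, n = 4) and CK 8.97 ± 3.67 (SD, n = 5). Without C replicate 2 or 3, WT replicate 2 or 4, or K replicate 1 the count was 3, and without K replicate 2 it was 12.

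Peaks were also summed by gene, once over peaks within 5 kb of its TSS and once over peaks 5 to 100 kb away. Promoter sums of 13553 genes were higher in CK for 835 genes (6.16%) and lower for 54 (0.398%), with a median log2 fold change over all genes of 0.06. Distal sums of 11262 genes were higher for 56 (0.497%) and lower for 175 (1.55%), with a median of -0.02. After centering within GC content bins, promoter sums were higher for 168 and lower for 143 genes, and distal sums for 52 and 124. The centering removes any shift that genes of like GC content share, so it can by itself take away an excess of higher promoters. The excess of lower distal sums remained. This fit of the sums was added after the data were seen. The promoter count of 889 fell to 277 without C replicate 4, 293 without CK replicate 1, 302, 453 and 535 without C replicates 2, 3 and 1, and 470 without CK replicate 4. The distal count of 231 fell to 62, 116 and 142 without C replicates 4, 3 and 1, and to 121 and 128 without CK replicates 2 and 1.

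The promoter sum with the lowest adjusted p was that of Apbb2, an adaptor that binds amyloid precursor protein. It had 19.5, 17.9, 20.2 and 19.5 CPM in C and 29.1, 27.9, 27.9, 28.99 and 27.5 in CK, with no overlap (log2 fold change 0.55, SE 0.06, edgeR adjusted p = 3.6e-05). Steap3, Fbxo27, Pm20d2 and Nr3c2, the mineralocorticoid receptor, followed with log2 fold changes of 0.62, 0.59, 0.64 and 0.52. The lowered promoter sums were led by Hepacam, a cell adhesion molecule, with 5.29, 4.69, 5.51 and 6.90 CPM in C and 2.81, 2.32, 2.27, 2.84 and 3.40 in CK (log2 fold change -1.04, SE 0.15, edgeR adjusted p = 0.000145). Vipr2, a receptor for vasoactive intestinal peptide, Cfap74, Scn11a, a sodium channel, and Tas2r138, a taste receptor, had log2 fold changes of -0.51, -0.35, -0.63 and -0.97. Distal sums fell most clearly at Grik3 (-1.33), Asphd1 (-0.92), Get4 (-0.40), Fam104a (-0.82) and Setd3 (-0.49), a histidine methyltransferase of actin, and rose at Enpep (0.75), Ccdc81 (0.62), Socs5 (0.78), an inhibitor of cytokine signals, Hbp1 (0.53) and Siglec15 (0.42). Of the 9231 genes with both sums, 15 were higher in both, among them Otx1 and the receptor kinase gene Ret, 4 were lower in both (Kidins220, Kirrel3, Myo1f and Tcerg1l), 4 had a higher promoter and a lower distal sum (Faap100, Otud4, Prpf40b and Usp10), and 0 the reverse.

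Developmental transcription factors, which are mostly silent in B cells and whose starts often lie in CpG islands, stood higher in CK. Of 38 with a promoter sum, 11 were higher and 0 lower, against 6.16% and 0.398% of all genes, and the median log2 fold change was 0.27, against 0.06 for all genes, with 36 of 38 above 0. Their promoter peaks together had 415, 422, 397 and 403 CPM in the C mice and 509, 471, 472, 483 and 499.7 in the CK mice, so the groups did not overlap. The same sum was 348 to 398 CPM in WT and 437 to 447 in K. Otx1, a homeobox factor of forebrain, had 6.28, 6.41, 6.52 and 7.17 CPM in C and 9.403, 11.4, 11.7, 8.77 and 11.5 in CK (log2 fold change 0.68, SE 0.12, edgeR adjusted p = 0.000815), and none of the CK mice reached down to C. Foxa1, a pioneer factor of endoderm, and Foxd3, of the neural crest, had log2 fold changes of 0.54 and 0.46. Others of the 11 were Six2 (0.45), Gata6 (0.51), Irx5 (0.34), Tbx15 (0.29), Foxc1 (0.26) and Pax6 (0.22). Otx1, Foxa1 and Foxd3 kept the call without any 1 library, while it ended on leaving out 8 of the 9 libraries for Six2 and Gata6, 6 for Irx5, 5 for Tbx15 and 4 for Foxc1 and Pax6. Within GC content bins all 11 stayed above 0, but 2 of them (Foxa1 and Foxd3) were still called. Distal sums of 30 of these genes held 3 higher (Otx1, Pax3 and Barx1) and 1 lower (Pax7), with a median of 0.19, against -0.02 for all genes. Pax7 had 2 lost intronic peaks, with log2 fold changes of -0.56 and -0.52.

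Few genes of the GC B-cell program were called, while their distal sums leaned lower. MHC class II genes (0 higher and 0 lower of 11 promoter sums, and of 9 distal sums), B-cell receptor signaling genes (0 and 0 of 18, and of 16) and genes of T-cell help (0 and 0 of 20 promoter sums, 0 and 1 of 19 distal sums) had median distal log2 fold changes of -0.07, -0.09 and -0.08. Above 0 were 1 of 9, 1 of 16 and 2 of 19 distal sums, against 5130 of 11262 over all genes. Lists of other kinds leaned the same way, with 4 of 18 distal sums of mitosis genes above 0 (median -0.10), 1 of 7 of non-GC B-cell markers (-0.10) and 1 of 14 of GC exit genes (-0.06). Summed over the list, distal levels of T-cell help did not overlap (1595 to 1727 CPM in C and 1531 to 1574 in CK). Neither did those of B-cell receptor signaling (2833 to 3044 and 2693 to 2784) or mitosis (744 to 786 and 717 to 727). Those of MHC class II (709 to 778 and 678 to 734), GC exit and non-GC B-cell markers overlapped. The lowered distal sum among genes of T-cell help was that of Itgal, which encodes the integrin chain of LFA-1, with a log2 fold change of -0.33 (SE 0.06, edgeR adjusted p = 0.00293). Genes of GC confinement and chemotaxis had 0 of 11 distal sums above 0, with a median of -0.13 and none called. Of the 24 called promoter and distal sums of listed genes, 19 lost the call when some 1 library was left out and 15 within GC content bins. Among GC B-cell transcription factors the promoter sum of Tcf4 was higher (0.14) and the distal sum of Runx1 lower (-0.26), of 23 and 21 tested. The call at Tcf4 ended without 7 of the 9 libraries and that at Runx1 without 4. Of 16 NF-kB genes, Tnfaip3, an inhibitor of the pathway, had a higher promoter sum (0.16), and of 15 genes of GC exit, Zbtb32 had a lower one (-0.15). Of 20 genes of mitosis none was called, and of 14 coactivator and chromatin regulator genes Crebbp had a higher promoter sum (0.23, edgeR adjusted p = 0.00493). The Crebbp sum is the single peak at its start, which did not pass the test over all peaks (edgeR adjusted p = 0.0118). Tnfrsf17 (promoter, -0.23) and Jchain (distal, -0.29) were lower among 6 plasma-cell markers, and Cd4 was lower (-0.56) among 5 T-cell markers with distal peaks. Leaving out single libraries ended these calls for 7 of 9 libraries at Tnfrsf17, 6 at Tnfaip3, Zbtb32 and Jchain, 5 at Crebbp and 2 at Cd4.

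**Figure D5:**
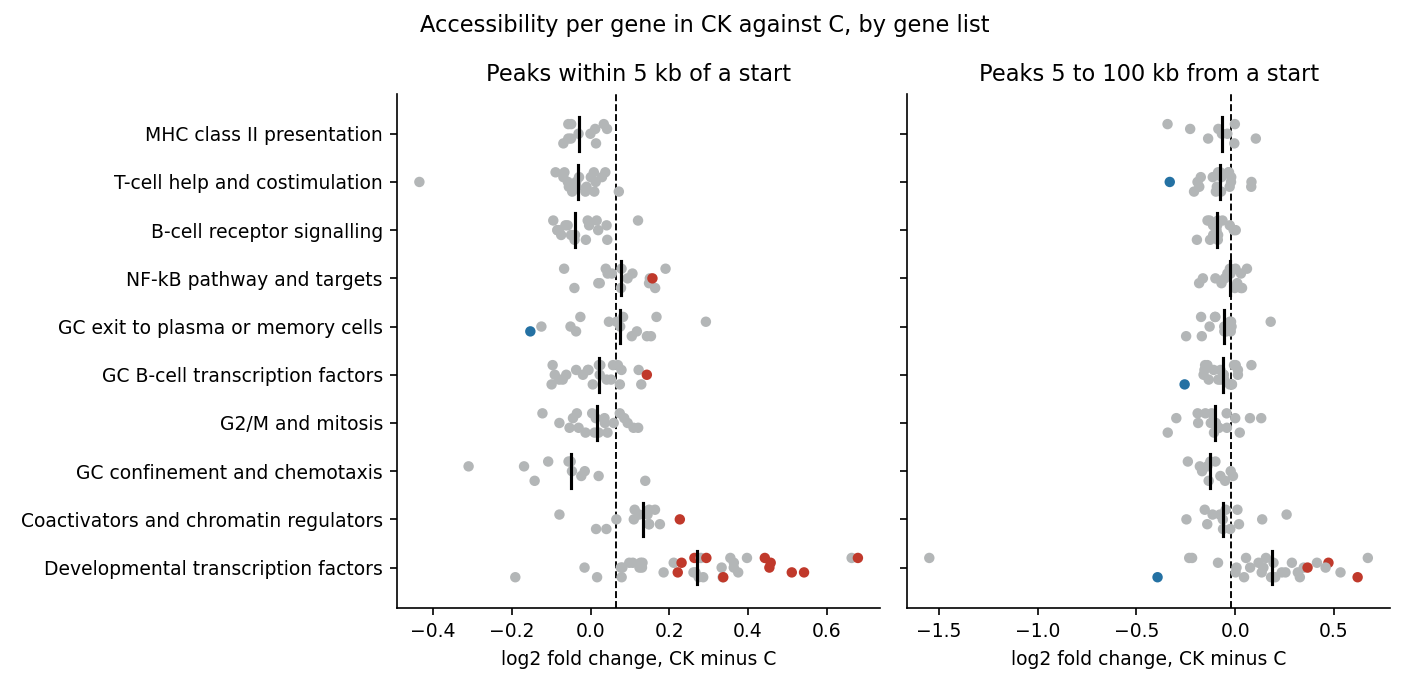
Points are log2 fold changes of CK against C for single genes in 10 gene lists, from promoter sums (left) and distal sums (right). Red points were called higher, blue points lower and grey points neither, short black lines are list medians and the dashed line is the median of all genes. Most developmental factors lie to the right of the dashed line in both panels, with medians of 0.27 and 0.19.

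Lost peaks near GC genes were about as frequent as elsewhere. Within 100 kb of the genes, 1 of 52 peaks was lost in the MHC class II list, 2 of 135 in T-cell help, 2 of 191 in B-cell receptor signaling, 2 of 249 in GC exit and 4 of 361 in GC B-cell transcription factors, against 462 of 60482 over all genes and 0.770% of all peaks. The single peaks that follow are given as values and not as a result about GC genes. The peak 79.4 kb from the TSS of Bcl6, the master repressor of the GC, had 2.69, 2.26, 2.93 and 2.60 CPM in C and 1.62, 1.45, 1.75, 1.79 and 1.79 in CK (log2 fold change -0.63, SE 0.14, edgeR adjusted p = 0.00952). The mice did not overlap, but the call was near its threshold and was lost when any 1 of the 9 libraries was left out. At the peak 25.4 kb into Ciita, the activator of MHC class II genes, the C mice had 62.8, 62.2, 73.0 and 79.0 CPM and the CK mice 57.8, 53.5, 52.3, 56.2 and 55.8 (log2 fold change -0.33, SE 0.07, edgeR adjusted p = 0.00987). C replicates 3 and 4 stood highest, and the call was lost on leaving out 7 of the 9 libraries, those 2 among them. The log2 fold change at Ciita was -0.13 among mice with Y chromosome signal and -0.50 among those without. Lost peaks were also nearest to Itgal (-0.32), Pik3ap1 (-0.35), an adaptor of the B-cell receptor, Il21r (-0.38), the receptor for a T-cell help cytokine, Ccr7 (-0.44), Pax5 (-0.20), Ets1 (-0.41), Runx3 (-0.66), Hhex (-0.34), a factor of memory B cells, Zbtb20 (-0.62), Jchain (-0.33) and Cd4 (-0.56). Gained peaks lay near Mef2c (0.45) and, 1430 kb away, Zeb2 (0.58). Of the 32 DAPs nearest to genes of these lists, 27 lost the call when some 1 library was left out, and 12 lost it within GC content bins.

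Peaks near Kmt2d were set apart, since CK and C mice differ there in the floxed allele. Within 20 Mb of the gene, 15 of 1288 peaks were gained and 15 lost (2.33%, against 1.66% elsewhere), and within 20 Mb of Crebbp, where both groups carry the floxed allele, 10 of 887 were gained and 13 lost (2.59%). The largest change near Kmt2d was a loss in an intron of Tbc1d22a (2.20 ± 0.350 CPM in C, SD, n = 4, and 0.896 ± 0.229 in CK, SD, n = 5, log2 fold change -1.28). Among the autosomes and X, called shares by chromosome ran from 0.952% on X to 2.56% on chromosome 18, where 36 peaks were gained, while 0 of 25 peaks on Y and 0 of 2 on the mitochondrial genome were called, and without the 20 Mb around Kmt2d 1046 DAPs remained.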

How the data were processed

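ATAC-seq libraries of GC B cells from 17 mice (4 WT, 4 C, 4 K and 5 CK), 1 library a mouse, were used. The authors deposited 1 table of raw fragment counts per consensus peak, not normalized, made per the file header with featureCounts 2.0.1 on mm10. A fragment that overlapped several peaks was counted in each, and the handling of duplicates is not given in the sources used here. The table holds 65483 peaks, and a minimum of 10 counts in all removed 0.

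Counts were normalized by TMM and fitted in edgeR 4.0.16 (R 4.3.3, limma 3.58.1) with 1 coefficient per genotype over the 17 libraries. CK minus C, gene sums and the interaction were tested by quasi-likelihood, with Benjamini-Hochberg adjustment at 0.01. In counts simulated for CK against C on 65483 peaks, 85 of 200 peaks changed 1.5-fold were called with 0 false calls, and 155 of 200 changed 2-fold with 4 false calls. Single values were compared by two-sided exact permutation with SciPy 1.17.1 in Python 3.11.15. TSSs and introns came from GENCODE on GRCm38, and the chromosome lengths of that build contain all peaks. Alternatives were DESeq2 1.42.0, other normalizations, 20 bins of GC content, other filters, windows, thresholds and covariates, and leaving out each library.

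Named peaks were those with the 10 lowest adjusted p in each direction among DAPs with no overlap of CK and C mice, 1 per nearest gene, then the 5 with the largest fold change. DAPs nearest to listed genes or near Kmt2d, the 5 lowest adjusted p in each direction of each gene sum, listed genes whose sums were called, and peaks called in the interaction were also named. Genes with several DAPs and DAPs with opposite signs in K were singled out after their values were seen. The comparison, the lists and the tests were chosen with earlier results of these data known. Counts carry counting error besides the spread between mice. Libraries of sorted centroblasts and centrocytes were not used here, and some named genes and sequences that these rules select are not reported here.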

Additional observations from a re-analysis of the deposited data

Results flagged for a closer look

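Of 214 groups of values tested, 15 held a mouse whose distance from the others of its group was large against the range of the group, where chance gives about 1 in 20. In C, replicate 4 was low at the start of Pm20d2 (9.50 CPM, for the peak and for the promoter sum, which is the same peak), high in the intron of Dennd1a (11.7 CPM) and high near Rbbp8 (0.796 CPM), and replicate 1 was low in the distal sum of Otx1 (2.69 CPM). In CK, replicate 5 was high upstream of Grik3 (3.11 CPM) and at a Tcf4 peak (39.0 CPM) and low near Hhex (15.4 CPM). Replicate 2 of CK was high at Fbxo27 (26.2 CPM, peak and promoter sum), and replicate 4 was high in the promoter sum of Cfap74 (72.2 CPM). Replicate 3 of CK was low in the promoter sums of Pax6 (54.8 CPM) and Tbx15 (15.95 CPM) and in the distal sum of Ccdc81 (24.99 CPM) and high in that of Fam104a (8.47 CPM).

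The interaction was called at 7 peaks, of which those on chromosome 1 are neighbors, as are those on chromosome 11. The log2 fold change of CK against C less that of K against WT was -3.96 at Mks1, -1.13 at Msi2, -1.52 at Akap1, 0.75 and 0.58 at Mroh2a, 0.47 at Hjurp and 4.70 at Ablim1. Only WT stood apart at Hjurp and only K at Ablim1. A single group apart gives the same call as an effect of Kmt2d loss that depends on the background, and the cause was not tested. At Mks1 the 4 C mice had 11.9 to 14.7 CPM, CK replicate 4 had 0.897 and the other CK mice 8.02 to 10.8, while WT had 1.13 ± 0.234 (SD, n = 4). None of the 7 passed the test of CK against C.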

How the results depend on the processing

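The 1098 DAPs became 4377 at an adjusted p under 0.05, 460 with a fold change above 1.5 also required, 1903 with DESeq2, 1916 with Y chromosome signal as covariate, 604 within GC content bins, and 43 and 161 within libraries with and without Y chromosome signal. Promoter sums (889) became 2428 at 0.05, 149 with the fold requirement, 1432 with the Y covariate and 311 within GC content bins. Distal sums (231) became 870 at 0.05, 43 with the fold requirement, 386 with the Y covariate, 457 with DESeq2 and 153 with only C and CK libraries. The interaction gave 11 calls with DESeq2. With the replicate block the counts were 2571 peaks, 1560 promoter sums and 558 distal sums. Deviations of same-numbered C and CK mice from their genotype means had r = 0.16, -0.08, 0.20 and -0.08. Pairs with unlike numbers ran from -0.15 to 0.17. The numbers thus did not pair the mice throughout, and whether some replicates share a batch was not tested. Leaving out 1 library gave 250 to 1188 peaks, 277 to 1277 promoter sums, 62 to 253 distal sums and 3 to 12 interaction calls. The cause of these moves was not tested. Among refits of 136 named items, 2611 stayed on their side of the threshold, 753 lost the call and 0 reversed the direction. The items had been chosen by the main test and the refits reuse its libraries, so these counts describe the items and do not test them. Some settings, such as an adjusted p under 0.05, could not end a call. At this depth and number of mice, 155 of 200 simulated 2-fold changes were called in CK against C, so an uncalled peak is not shown to be unchanged.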
